A study of Mus musculus with 12 samples.

Results

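Mouse genes named Zfp followed by a number encode zinc finger proteins, the largest class of DNA-binding proteins in mammals. The set described here holds every entry whose whole name is Zfp, a number and at most 1 letter, without Zfp36, whose CCCH fingers bind RNA. Members were chosen by their expression: a value of 1 or more in at least 3 of 12 libraries, in fragments scaled to transcript length and library size (FPKM). Of 340 such names, spread over 365 entries of the table, 197 passed, and 143 lay below this limit. Where a name stood on several entries, which was so for 15 of the 197 genes, the entry with the highest mean FPKM was taken. The whole table held 24553 entries, of which 11671 passed the same limit and were tested.

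RNA was sequenced from 8-month male mice in 4 groups of 3 libraries each. The Setd2 knockout (KO) tumors and wild-type (WT) tumors were liver tumors of mice that had received 1 dose of diethylnitrosamine (DEN), a liver carcinogen, at 25 mg/kg into the peritoneum at 2 weeks of age. The KO normal livers and WT normal livers came from mice not given DEN. Tumor growth and DEN treatment therefore cannot be told apart where tumors are compared with normal livers, nor in the interaction of genotype and tissue. Sample titles call the knockout cKO, but the labels name neither the Cre driver, nor the cells it acts in, nor the exons removed, and they do not say whether each library came from its own animal, so the spread between libraries of a group may be partly technical. Libraries were made from poly(A)-selected RNA without strand information, so that reads of overlapping or antisense genes cannot be told apart.

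In a C2H2 zinc finger, a pair of cysteines and a pair of histidines hold a zinc ion, and a row of such fingers reads a stretch of DNA. Many mouse zinc finger proteins also carry a KRAB box, which recruits the corepressor TRIM28 (KAP1) and through it SETDB1, a histone H3 lysine 9 methyltransferase, to silence retroelements and to keep imprinted genes marked. SETD2 is the enzyme that trimethylates histone H3 lysine 36 along transcribed genes.

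The repeat structure can be seen in 4 members on which the results turn, taken from GENCODE transcripts on GRCm38. Each line gives 78 bases, 1 finger and the linker after it, with the codons of the cysteines and histidines in capitals. The Zfp9 repeat lies at chr6:118465019-118465096 on the minus strand, that of Zfp874a at chr13:67442988-67443065 on the minus strand, that of Zfp637 at chr6:117845270-117845347 on the plus strand, and that of Zfp445 at chr9:122852892-122852969 on the minus strand, each within a coding exon. Each repeat was the first in its protein to match a pattern of cysteines, histidines and linker. Over the 4 repeats, 32 of 78 bases were identical, and part of this likeness was fixed by that choice.
Zfp9: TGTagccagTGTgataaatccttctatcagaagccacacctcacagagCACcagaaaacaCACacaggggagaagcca
Zfp874a: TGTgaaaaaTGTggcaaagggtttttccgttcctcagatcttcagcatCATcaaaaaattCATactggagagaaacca
Zfp637: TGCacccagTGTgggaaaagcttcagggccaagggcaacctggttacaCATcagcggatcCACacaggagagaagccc
Zfp445: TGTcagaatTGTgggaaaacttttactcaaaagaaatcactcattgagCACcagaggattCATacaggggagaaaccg

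A KRAB box was searched in the GENCODE proteins of every coding transcript, and fingers were counted in the longest protein. In 97 members a KRAB box was found in any of these proteins, and in 99 it was not found. The remaining member, Zfp191, had no matched protein. Among Zfp names below the expression limit, 97 of 139 matched names had a KRAB box. KRAB members had a median of 11 fingers and the others a median of 7, and the longest array, in Zfp142, had 36. No finger matched the pattern in 5 members, Zfp330, Zfp703, Zfp750, Zfp839 and Zfp935. Members lay on 20 chromosomes, with 42 on chromosome 7, 31 on chromosome 17 (26 of them with a KRAB box), 16 on chromosome 8 and 13 on chromosome 13. Of the members, 65 shared more than 5 percent of their 50-base words with transcripts of another gene, and 18 more than 30 percent, so that the counting of their reads is uncertain.

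Promoters, taken as 250 bases before to 50 after the start in RefSeq (GRCm38.p6), are shown for 2 genes that fell in KO normal liver. The GC box, searched as GGGCGG on both strands, stands in capitals. It occurred in 84 of 163 member promoters in the table (51.5%), in 41.2% of those of KRAB members and in 62.8% of those of the other members, against 64.4% of the promoters of tested genes and 35.9% of all promoters. An ETS-type motif, CCGGAAG on both strands, occurred in 19.0% of member promoters and in 18.7% of those of tested genes. The Zfp955b promoter lies at chr17:33289294-33289593 on the plus strand and the Zfp445 promoter at chr9:122865957-122866256 on the minus strand.
Zfp955b: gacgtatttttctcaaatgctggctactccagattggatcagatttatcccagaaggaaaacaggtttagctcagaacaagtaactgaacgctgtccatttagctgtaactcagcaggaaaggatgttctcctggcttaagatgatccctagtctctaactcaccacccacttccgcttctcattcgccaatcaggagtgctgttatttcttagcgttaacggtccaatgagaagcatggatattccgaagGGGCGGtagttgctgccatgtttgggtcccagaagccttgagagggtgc
Zfp445: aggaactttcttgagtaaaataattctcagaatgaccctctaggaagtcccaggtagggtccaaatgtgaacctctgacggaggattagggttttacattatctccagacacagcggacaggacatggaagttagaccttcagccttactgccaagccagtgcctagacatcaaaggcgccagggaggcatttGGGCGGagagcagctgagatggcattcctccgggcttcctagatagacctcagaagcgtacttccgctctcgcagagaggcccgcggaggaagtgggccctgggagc

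Setd2 itself had FPKM values of 1.66, 1.93 and 1.32 in KO normal livers, against 4.84, 3.84 and 4.70 in WT normal livers (log2 difference -1.05 ± 0.14 SE, adjusted p = 0.0108). Here and throughout, differences are on the log2(FPKM + 1) scale, tested two-sided with limma, with Benjamini-Hochberg adjustment over the 11671 entries and calls at an adjusted p below 0.05. In KO tumors Setd2 had 3.14, 2.18 and 1.90 FPKM, against 4.40, 3.61 and 4.07 in WT tumors, with no overlap, but the difference of -0.57 ± 0.19 was not called by limma (adjusted p = 0.188). FPKM summed to between 423498 and 719538 per library; the files hold no counts, so that read depth is unknown. In these bulk samples, fewer cells of a type and less RNA per cell cannot be told apart.

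Most expressed Zfp genes were low. The mean FPKM over the 12 libraries ran from 0.616 to 31.9 with a median of 2.32, against a median of 7.28 over all tested genes. Only 42 members reached a mean of 5 and 12 a mean of 10. KRAB members had a median of 1.57 and the others 3.42, levels that are per length of transcript. The highest was Zfp706, at 24.6, 42.6 and 27.3 FPKM in KO tumors, 22.2, 27.4 and 26.9 in WT tumors, 38.3, 35.5 and 31.7 in KO normal livers, and 36.2, 33.5 and 36.5 in WT normal livers. It was followed by Zfp207, which binds the spindle checkpoint protein BUB3, and by Zfp598, Zfp771, Zfp445 and Zfp637. For Zfp706 every WT tumor lay below every normal liver of both genotypes, and the KO tumors overlapped all other groups.

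The expression limit used these same values. It was met in all 12 libraries by 123 members and in exactly 3 by 8 members. Members that reached an FPKM of 1 in part of the groups only were chosen through the groups in which they are high, so that they had to differ. Only WT libraries reached it in 5 members (Zfp9, Zfp229, Zfp719, Zfp729b and Zfp760) and only KO libraries in 1 (Zfp90). Only tumors reached it in 7 (Zfp7, Zfp37, Zfp57, Zfp90, Zfp532, Zfp608 and Zfp704) and only normal livers in 4 (Zfp2, Zfp229, Zfp729b and Zfp780b). Of these, 3 reached it in a single group, Zfp90 in KO tumors and Zfp229 and Zfp729b in WT normal livers. Just inside the limit stood Zfp719 and Zfp74, with 1.0 and 1.02 FPKM as the third highest value. Just outside stood Zfp748 at 0.993 and Zfp791 at 0.986.

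In KO normal livers, compared with WT normal livers, Zfp9, Zfp874a, Zfp955b and Zfp445, all KRAB genes, had the largest falls, and Zfp385a and Zfp444, without a KRAB box, the largest rises. Of the 197 genes, 10 rose and 18 fell, 14.2% in all, against 18.1% of all tested genes called (9.33% up and 8.77% down). The falls counted here and by class below include Zfp9, Zfp229, Zfp719 and Zfp729b, which reached 1 FPKM in WT libraries only. These genes entered the set through the genotype in which they are higher. The member median was -0.11, against 0.03 over all tested genes, and 124 of the 197 differences were negative. In 23 genes every KO liver lay above every WT liver (21.9% of all tested genes did so) and in 55 every KO liver lay below (20.7%). Of the KRAB members 1 rose and 11 fell (median -0.12), and of the others 9 rose and 7 fell (median -0.07); the difference between these classes was not tested. The calls down were 7 KRAB and 7 other members in one fit of all 12 libraries. They were 4 and 4 without WT normal liver 1, 2 and 3 without WT normal liver 2, and 2 and 0 without WT normal liver 3. Without KO normal liver 1 they were 11 and 4, without KO normal liver 2 they were 5 and 2, and without KO normal liver 3 they were 4 and 2. With the replicate number as a block they were 3 and 0.

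Zfp9, a KRAB gene, reached 1 FPKM in WT libraries only, so that it entered the set through the genotype in which it is higher. It had 0.158, 0.202 and 0.202 FPKM in KO normal livers, against 2.0, 2.5 and 2.33 in WT normal livers. Every KO liver lay far below every WT liver, and the difference was -1.46 ± 0.10 (limma, adjusted p = 0.00291). In tumors Zfp9 had 0.594, 0.395 and 0.186 FPKM in KO, against 1.48, 1.26 and 0.550 in WT, where the lowest WT tumor lay within the KO range. Zfp955b, another KRAB gene, had 0.701, 0.452 and 0.495 FPKM in KO normal livers, against 2.2, 1.96 and 2.41 in WT normal livers (-1.04 ± 0.12, limma adjusted p = 0.00675). Because 50.6% of its 50-base words recur elsewhere, mainly in Zfp955a, its reads could be split between the pair. Zfp9 and Zfp955b were the 2 members still called whichever library was left out; without WT normal liver 3 they were the only 2 called, and without WT normal liver 2 only 7 members were. The count was 12 without WT normal liver 1, 10 without KO normal liver 2 and 8 without KO normal liver 3. Calls over all tested genes numbered 240 without WT normal liver 3, 621 without WT normal liver 2 and 1174 without WT normal liver 1. They numbered 781 without KO normal liver 2 and 654 without KO normal liver 3.

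Zfp874a, with a KRAB box, had 2.99, 2.30 and 1.17 FPKM in KO normal livers, against 8.45, 5.96 and 5.84 in WT normal livers (-1.33 ± 0.25, limma adjusted p = 0.0194). The groups did not overlap, but the call was lost without WT normal liver 2 or WT normal liver 3, where the largest adjusted p was 0.0638. Zfp445, which protects imprinted genes from losing their methylation, had 20.2, 14.7 and 10.7 FPKM in KO normal livers, against 30, 25.9 and 39.3 in WT normal livers (-1.03 ± 0.24, limma adjusted p = 0.0326). Its call was lost when any library other than KO normal liver 1 was left out. Zfp330, one of the members without a finger by the pattern, had 9.63, 8.72 and 9.78 FPKM in KO normal livers, against 15.9, 16.4 and 16.2 in WT normal livers (-0.73 ± 0.11, limma adjusted p = 0.0121). Zfp800 fell by 0.85 on the log2 scale (limma adjusted p = 0.014), and both calls were lost without WT normal liver 3.

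Among members that rose, Zfp385a, which encodes an RNA-binding protein, had 10.1, 14.8 and 19.5 FPKM in KO normal livers, against 6.25, 5.96 and 4.24 in WT normal livers (+1.25 ± 0.24, limma adjusted p = 0.021). Zfp467, which promotes adipocyte commitment in mouse precursor cells, had 12.3, 12.8 and 20.1 FPKM in KO normal livers, against 6.21, 7.09 and 7.41 in WT normal livers (+0.99 ± 0.20, limma adjusted p = 0.0216). Zfp637 had 19.4, 21.4 and 21.5 FPKM in KO normal livers, against 12.5, 12.5 and 11.1 in WT normal livers (+0.74 ± 0.11, limma adjusted p = 0.0123). In all of these genes the groups were separate. Zfp444, at 10.6, 9.45 and 13.4 FPKM in KO normal livers, against 6.58, 3.47 and 3.35 in WT normal livers, rose by 1.19 (limma adjusted p = 0.0233). Zfp703, a transcription cofactor amplified in human breast cancer, rose by 0.75 and Zfp771 by 0.68 (limma adjusted p = 0.0296 and 0.0434). Zfp688 was the 1 KRAB member that rose, with 3.29, 4.05 and 3.95 FPKM in KO normal livers, against 1.76, 2.12 and 2.15 in WT normal livers (+0.66 ± 0.13, limma adjusted p = 0.0206). The call of Zfp637 was lost without WT normal liver 3, and those of the other 6 genes of this paragraph without WT normal liver 3 or any of at least 2 other libraries.

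**Figure D1:**
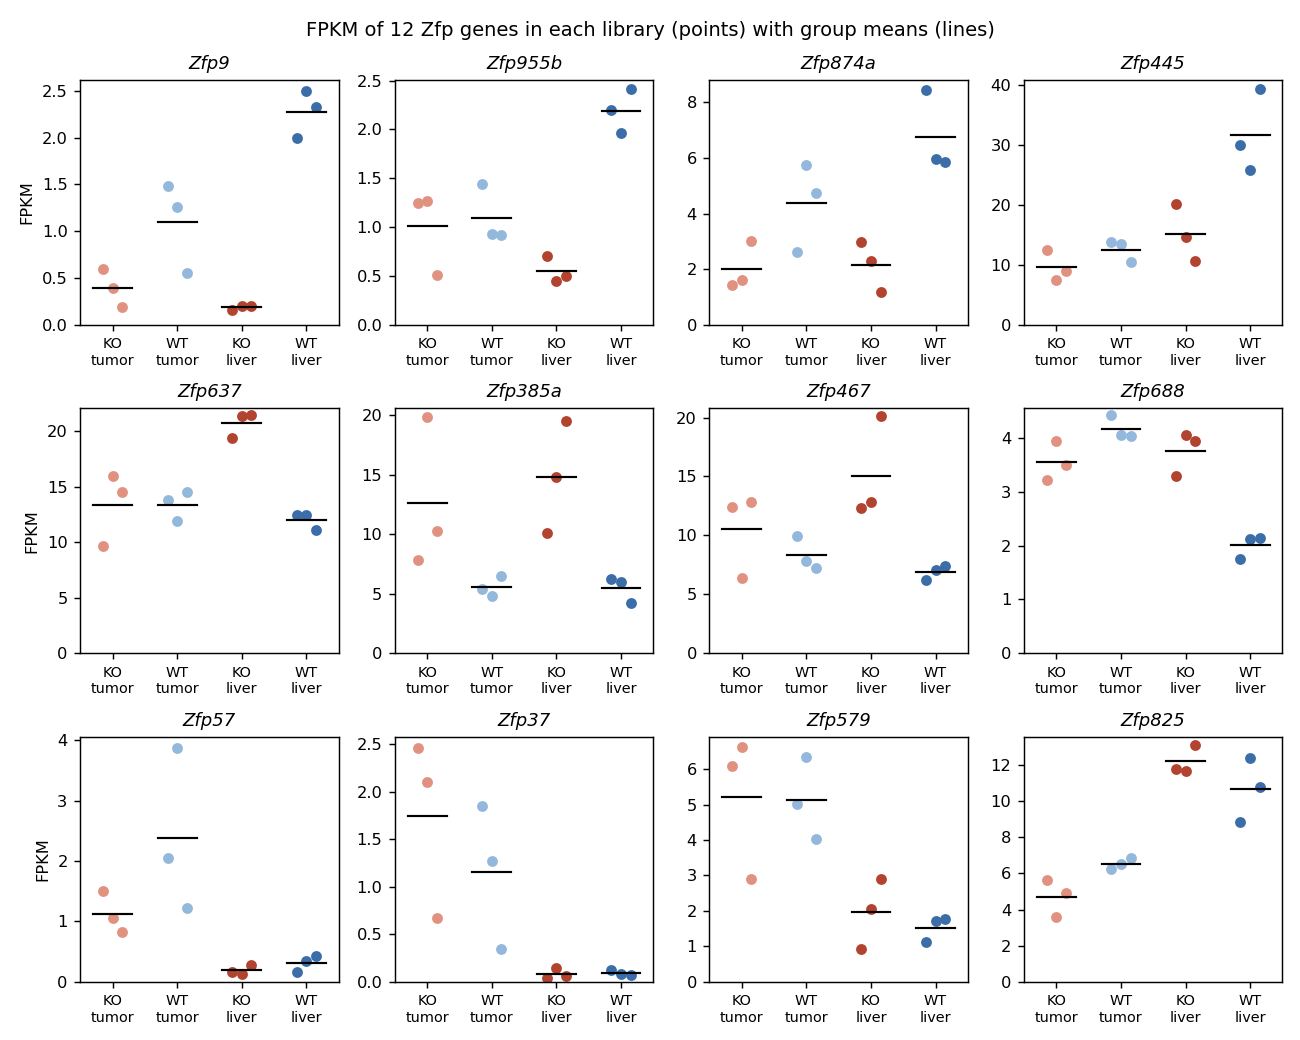
FPKM (linear axes from 0) of 12 Zfp genes in each library of the 4 groups; points are libraries and lines are group means (n = 3). The KO normal liver points of Zfp9, Zfp955b and Zfp874a lie below all WT normal liver points, and those of Zfp637, Zfp385a, Zfp467 and Zfp688 above.

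Of 5 imprinting and retroelement repressors, 2 fell in KO normal livers, Zfp445 and Zfp568, which represses a placental Igf2 promoter in mouse embryos (-0.44, limma adjusted p = 0.0388). Among all tested genes, 9.33% rose and 8.77% fell in this comparison. Zfp809, which starts the silencing of retroviruses in mouse embryonic stem cells, differed by -0.24 (limma adjusted p = 0.343) and Zfp57, a keeper of imprints, by -0.14 (limma adjusted p = 0.395), neither called. Of 12 RNA, ribosome and splicing factors, Zfp385a rose, and Zfp830, a splicing factor in human cells, fell by 0.70 (limma adjusted p = 0.0188). Zfp598, a ubiquitin ligase that acts on stalled ribosomes, fell by 0.47 (limma adjusted p = 0.0357). Of 18 promoter-binding regulators Zfp277 rose by 0.56 and Zfp143, a promoter-binding activator, fell by 0.61 (limma adjusted p = 0.0386 and 0.0444). Of 3 adipose and lineage regulators Zfp467 and Zfp703 rose, and Zfp750, an epidermal differentiation factor, differed by -0.61 (limma adjusted p = 0.098). The calls of Zfp568, Zfp830, Zfp598, Zfp277 and Zfp143 were each lost without KO normal liver 2, KO normal liver 3 or WT normal liver 3.

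Transcript length moved with the difference. Across members, which share libraries, Spearman's rho between transcript length and the KO minus WT difference was -0.21 (n = 196 genes), against -0.35 over 10524 tested entries with a length. Members with transcripts above the member median in length had 2 up and 12 down, and those at or below it 8 up and 6 down. With the length trend removed, 9 members rose and 11 fell (KRAB 1 up and 7 down, others 8 up and 4 down). Of the 10524 entries in that fit, 675 rose and 704 fell. Zfp445, Zfp568 and Zfp688 were among the members no longer called. Zfp445 then differed by -0.86 (limma adjusted p = 0.0507), Zfp568 by -0.26 (0.137) and Zfp688 by +0.36 (0.087). By finger number, the 94 members with 10 or more fingers had 1 up (1.06%) and 10 down (10.6%). The 64 with 5 to 9 had 3 up (4.69%) and 5 down (7.81%), and the 38 with up to 4 had 6 up (15.8%) and 3 down (7.89%). By level, the 155 members with a mean FPKM below 5 had 3 up (1.94%) and 15 down (9.68%). The 42 at 5 or more, of which 8 had a KRAB box, had 7 up (16.7%) and 3 down (7.14%). Which of these properties goes with the direction was not tested. Among all tested genes, in the fit with the length trend kept that gave these classes, 9.33% were up and 8.77% down.

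**Figure D2:**
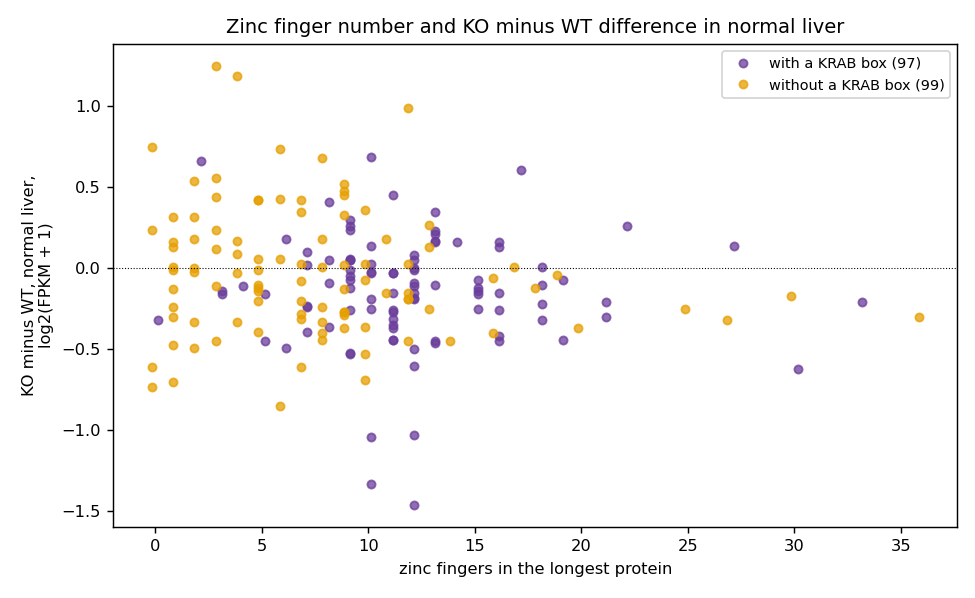
Number of zinc fingers in the longest protein (x axis, the 2 classes drawn slightly apart) against the KO minus WT difference in normal liver on the log2(FPKM + 1) scale (y axis); each point is 1 gene, coloured by KRAB box. The 94 members with 10 or more fingers had 1 call up and 10 down (10.6% down, against 8.77% of all tested genes).

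No member was called between KO and WT tumors by limma, against 0.0771% of all tested genes, with 20 of the 197 members at an unadjusted p below 0.05, against 2058 of all 11671 tested genes. A single fit over all 12 libraries called 2 members up and 1 down, against 697 up and 320 down of all tested genes. The member median was -0.08, against 0.02 over all tested genes, and the groups did not overlap in 8 genes higher in KO tumors (13.8% of all tested genes) and in 25 genes lower (10.1%). The smallest adjusted p was that of Zfp354b, a KRAB gene, with 0.455, 0.345 and 0.502 FPKM in KO tumors, against 0.972, 1.29 and 1.15 in WT tumors (-0.57 ± 0.16, limma adjusted p = 0.142). Zfp280b had 1.59, 1.51 and 1.01 FPKM in KO tumors, against 3.54, 2.30 and 2.55 in WT tumors (-0.67, limma adjusted p = 0.155). Their groups were separate, but neither difference was called. Zfp90 had 1.73, 2.49 and 1.40 FPKM in KO tumors, against 0.971, 0.574 and 0.765 in WT tumors (+0.69, limma adjusted p = 0.156), and 71.1% of its words recur elsewhere, mainly in Gm26786. Zfp90 reached 1 FPKM in KO tumors only, so that it entered the set through the group in which it is higher. It is among the 8 separate genes higher in KO tumors. Zfp385a had 7.86, 19.8 and 10.3 FPKM in KO tumors, against 5.41, 4.77 and 6.48 in WT tumors (+0.97 ± 0.32, limma adjusted p = 0.194). Zfp874a had 1.42, 1.60 and 3.02 FPKM in KO tumors, against 2.62, 5.74 and 4.74 in WT tumors (-0.82 ± 0.30, limma adjusted p = 0.228), where 1 KO tumor lay within the WT range.

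Cell type markers were taken as mean log2(FPKM + 1) over each list. Between the tumor groups, the ranges of stellate cell and fibroblast markers were separate, and those of hepatocyte and of macrophage markers overlapped. Hepatocyte markers (all 15 tested) stood at 8.76, 8.60 and 10.35 in KO tumors 1, 2 and 3 and ran from 9.89 to 10.22 in WT tumors. KO tumors 1 and 2 thus lay below every WT tumor and KO tumor 3 above every WT tumor. By gene, 14 of the 15 hepatocyte markers were lower in KO tumors, with a median difference of -0.64. Stellate cell and fibroblast markers (12 of 13 tested) ran from 3.47 to 3.73 in KO tumors and from 2.61 to 2.71 in WT tumors, and macrophage and Kupffer cell markers (all 14 tested) from 4.11 to 5.27 in KO tumors and from 3.20 to 4.23 in WT tumors. By gene, 12 of the 14 macrophage markers were higher in KO tumors, with a median difference of 1.08. In 7 of them every KO tumor lay above every WT tumor (13.8% of all tested genes did so). Limma called 1 up (7.14%, against 0.0343% of all tested genes). No listed marker was at 0 in all libraries of either tumor group. Between the normal liver groups, hepatocyte markers ran from 10.34 to 10.65 in KO and from 10.61 to 10.86 in WT. The 12 tested stellate and fibroblast markers had a median difference of 0.55, with 11 positive. In 6 of them every KO liver lay above every WT liver (21.9% of all tested genes did so). Limma called 2 up (16.7%, against 9.33% of all tested genes). The part of these shifts in the Zfp results was not tested.

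**Figure D3:**
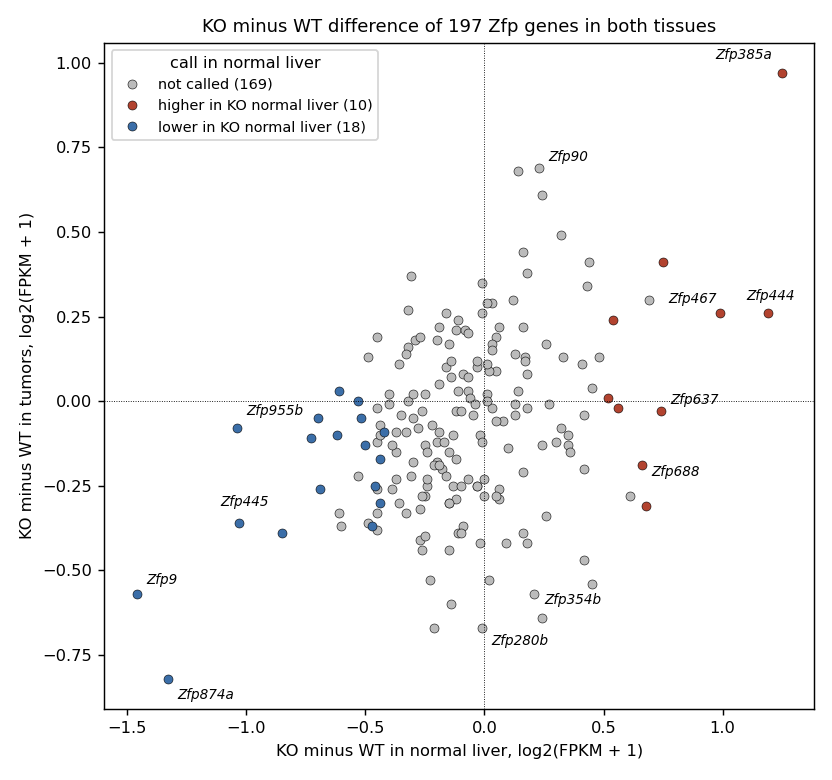
KO minus WT difference on the log2(FPKM + 1) scale in normal liver (x axis) and in tumors (y axis) for 197 Zfp genes; each point is 1 gene, coloured by its call in normal liver (10 higher in KO, 18 lower in KO, 169 not called). No gene was called in tumors; Zfp385a lies highest in both and Zfp9 and Zfp874a low in both.

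The effect of the knockout differed between tumors and normal liver in 1 member by the interaction test, against 2.08% of all tested genes (0.934% downward). Zfp688 had 3.22, 3.94 and 3.49 FPKM in KO tumors, against 4.42, 4.05 and 4.04 in WT tumors, whereas KO normal livers had lain above WT normal livers. The KO effect in tumors minus that in normal liver was -0.85 ± 0.17 (limma adjusted p = 0.0392). The call was lost without any of 8 libraries, which were KO normal livers 2 and 3, WT normal livers 1, 2 and 3, KO tumor 1 and WT tumors 2 and 3, and 11 members were called without KO tumor 3, against 682 up and 686 down of all tested genes. It was also lost with the length trend removed (-0.61, limma adjusted p = 0.102), on rescaling to a common sum (-0.82, limma adjusted p = 0.135) and without a filter on low values. Zfp955b (+0.96, limma adjusted p = 0.0726), Zfp9 (+0.89, 0.0901) and Zfp830 (+0.65) came next upward and Zfp692 (-0.88, 0.073) and Zfp94 (-0.98, 0.0835) downward, none of them called.

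WT tumors, set against WT normal livers, had higher levels of a few Zfp genes and lower levels of more. Of the members 7 rose and 16 fell, 11.7% in all, against 17.0% of all tested genes (8.01% up and 8.96% down). The member median was -0.10 against -0.04. Zfp729b, among those that fell, reached 1 FPKM in WT normal livers only and entered the set through them. In 25 members every tumor lay above every normal liver (18.5% of all tested genes) and in 46 below (23.8%). Of the KRAB members 4 rose and 11 fell (median -0.14), and of the others 3 rose and 5 fell. With values rescaled to a common sum the split became 14 up and 1 down, against 1660 up and 408 down of all tested genes. The member median became 0.12 against 0.23 over all tested genes, so that the direction of the split depends on the scaling. Without WT normal liver 3 only 3 members were called, against 242 up and 212 down of all tested genes. These 3 members, Zfp445, Zfp579 and Zfp688, held whichever library was left out. The member count was 9 without WT normal liver 1, 7 without WT normal liver 2, 10 without WT tumor 2 and 11 without WT tumor 3. This comparison shares the WT normal livers with that of KO and WT normal livers. Of the 15 hepatocyte markers, 14 were lower in WT tumors than in WT normal livers (median difference -0.67). The same number were lower in KO tumors than in KO normal livers (median difference -1.19). The part of these shifts and of DEN treatment in the Zfp results was not tested.

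Zfp445 had 13.8, 13.4 and 10.4 FPKM in WT tumors, against 30, 25.9 and 39.3 in WT normal livers (-1.27 ± 0.18, limma adjusted p = 0.00847). Zfp579 had 5.01, 6.33 and 4.03 FPKM in WT tumors, against 1.11, 1.71 and 1.77 in WT normal livers (+1.27 ± 0.19, limma adjusted p = 0.00879). Zfp688 rose by 0.78 (limma adjusted p = 0.0101). In all 3 genes the groups were separate. Zfp57, a KRAB gene that keeps imprints, had 2.05, 3.87 and 1.22 FPKM in WT tumors, against 0.163, 0.348 and 0.433 in WT normal livers (+1.29 ± 0.28, limma adjusted p = 0.0247). The call was lost without any of WT normal livers 1, 2 and 3, and only its tumor values brought Zfp57 into the set. Zfp809 had 4.77, 9.44 and 7.72 FPKM in WT tumors, against 14.1, 12.9 and 18.4 in WT normal livers (-0.99 ± 0.24, limma adjusted p = 0.0343), with every tumor below every normal liver. Zfp810, Zfp950 and Zfp704 also rose, by 0.86, 0.66 and 0.65, and Zfp180, Zfp330, Zfp655 and Zfp707 fell, by 0.75, 0.71, 0.65 and 0.63 (all called by limma); Zfp704 too was chosen through its tumor values. Each of these 7 calls was lost without WT normal liver 3, as was that of Zfp809.

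KO tumors, set against KO normal livers, had fewer called members, 3 up and 4 down, 3.55% in all, against 14.3% of all tested genes (9.09% up and 5.17% down). The member median was -0.05 against -0.02. In 20 members every tumor lay above every normal liver (21.3% of all tested genes) and in 32 below (19.8%). Without KO tumor 3, 21 members were called, 10 up and 11 down, against 1578 up and 1403 down of all tested genes, and without KO normal liver 2 or KO normal liver 3 none was by limma. It called 1 without KO normal liver 1, 1 without KO tumor 1 and 2 without KO tumor 2. Rescaled to a common sum, 7 members rose and none fell, against 1791 up and 281 down of all tested genes. The member median was then 0.26 against 0.36 over all tested genes. Proliferation genes ran from 1.65 to 3.33 in KO tumors, from 0.76 to 0.88 in KO normal livers, from 1.97 to 2.27 in WT tumors and from 0.74 to 0.90 in WT normal livers. KO tumor 3 had the lowest proliferation value of the tumors, 1.65, and their highest hepatocyte marker value, 10.35. The part of these markers in the Zfp results was not tested.

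Zfp37, a KRAB gene, had 2.46, 2.1 and 0.674 FPKM in KO tumors, against 0.0444, 0.146 and 0.0645 in KO normal livers (+1.27 ± 0.28, limma adjusted p = 0.0307). In WT tumors it had 1.85, 1.27 and 0.344 FPKM, against 0.126, 0.0788 and 0.0756 in WT normal livers (+0.91, limma adjusted p = 0.0582). Every tumor lay above every normal liver in both genotypes, but Zfp37, Zfp57 and Zfp608 were all chosen through their tumor values. Zfp57 had 1.51, 1.05 and 0.827 FPKM in KO tumors, against 0.167, 0.135 and 0.281 in KO normal livers (+0.82 ± 0.18, limma adjusted p = 0.0299), and Zfp608 rose by 0.78 (limma adjusted p = 0.043). The call of each of the 3 was lost without any library other than KO tumor 3.

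Zfp825, with 28.7% of its words shared, had 5.61, 3.61 and 4.92 FPKM in KO tumors, against 11.8, 11.7 and 13.1 in KO normal livers (-1.22 ± 0.18, limma adjusted p = 0.0122). Each tumor lay below every normal liver. The call was lost without any of KO normal livers 1, 2 and 3. Zfp707 had 4.95, 6.60 and 12.2 FPKM in KO tumors, against 16.8, 15.3 and 22.7 in KO normal livers (-1.18 ± 0.31, limma adjusted p = 0.0489). Zfp354b and Zfp94 fell by 0.91 and 0.85 (limma adjusted p = 0.0293 and 0.0489).

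**Figure D4:**
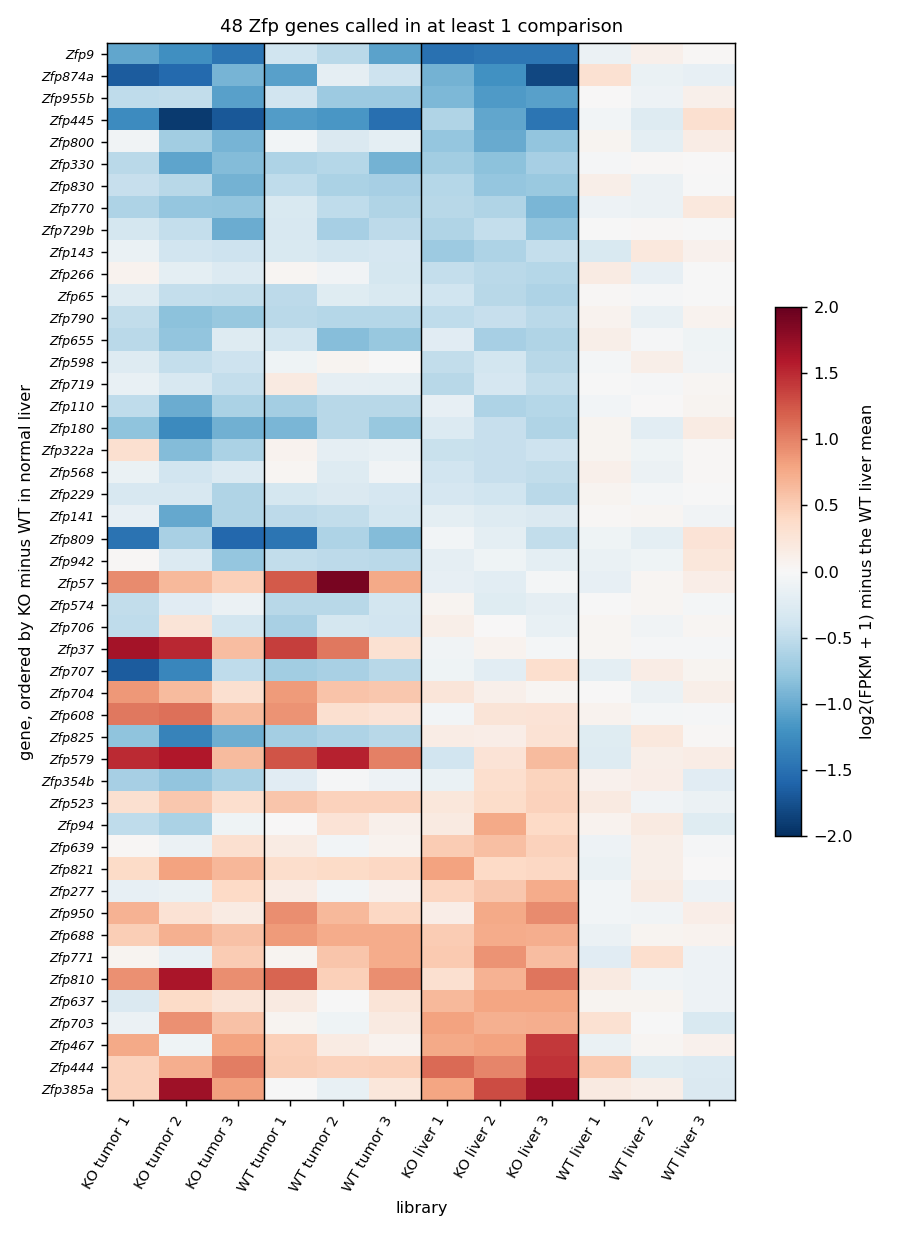
Heat map of the 48 Zfp genes called in at least 1 comparison of 2 groups (rows, ordered by the KO minus WT difference in normal liver) in the 12 libraries (columns); colour gives log2(FPKM + 1) minus the mean of the WT normal livers. Zfp9 and Zfp445 are blue in the KO normal livers, and Zfp57 and Zfp37 are red in all 6 tumors.

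Trim28, the corepressor gene on which KRAB proteins act, differed by +0.36 between KO and WT normal livers (limma adjusted p = 0.0767) and Setdb1 by +0.09 (limma adjusted p = 0.654), and neither was called in any comparison. Of the 27 tested KAP1 and heterochromatin partners, 1 rose and 2 fell in KO normal livers (11.1%, against 18.1% of all tested genes). These were Ehmt2, an H3 lysine 9 methyltransferase, at +0.46, Chd3, of the NuRD complex, at -0.75, and Mphosph8, of the HUSH complex, at -0.60. Without WT normal liver 2 or WT normal liver 3 none of them was called by limma, and 1 partner was without KO normal liver 2, KO normal liver 3 or WT normal liver 1. Between KO and WT tumors limma called 0, with Chd3 at -0.60 (adjusted p = 0.194). In WT tumors Uhrf1, needed to maintain DNA methylation, rose by 0.90, Chd4 by 0.53 and Mta1 by 0.44, and Chd3 fell by 0.67. These were 14.8% of the partners, against 17.0% of all tested genes. In KO tumors only Uhrf1 was called, up by 1.60 (3.7% of the partners, against 14.3% of all tested genes). Uhrf1 reached 1 FPKM in tumors only, so that it passed the expression limit through the tissue in which it is higher. Of the 4 calls in WT tumors, 1 or 2 partners were called without any library other than WT tumor 1, and in KO tumors 0 were by limma without any library other than KO tumor 3, where 4 were. Of 43 tested Zkscan, Zscan and Zbtb genes, 0 rose and 3 fell in KO normal livers (6.98%, against 18.1% of all tested genes). Limma called 0 of them without KO normal liver 2, KO normal liver 3, WT normal liver 2 or WT normal liver 3. It called 0 between KO and WT tumors.

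**Figure D5:**
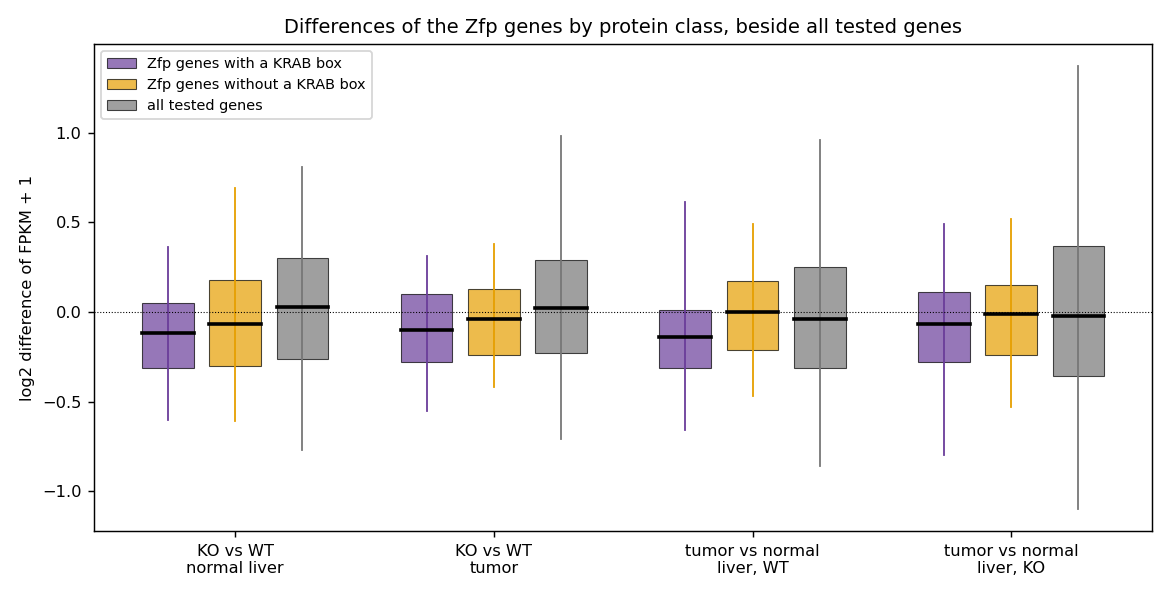
Log2 differences of FPKM + 1 in the 4 comparisons for KRAB members, members without a KRAB box and all tested genes; the black line is the median, the box the middle 50% and the whisker the 5th to 95th percentile. In normal liver the medians were -0.12 for KRAB members, -0.07 for the others and 0.03 for all tested genes.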

How the data were processed

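RNA was measured in 12 mouse libraries in 4 groups of 3. The deposited values are FPKM per gene entry, made by the authors. The submitters' processing notes name Cufflinks 2.2.1, TopHat2 2.1.1 and genome build mm10, without their settings or gene models. The files hold no counts, whole reads could not be recovered from the low values, and depth is unknown, so the precision comes from the spread of 3 libraries.

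Entries with FPKM of 1 or more in at least 3 libraries were tested with limma 3.58.1 in R 4.3.3 on log2(FPKM + 1), two-sided, with Benjamini-Hochberg adjustment, after the fit was tested on simulated data. A comparison of 2 groups used only their 6 libraries, and the interaction used all 12. The pseudocount of 1 understates changes of low genes. Fingers were counted by the pattern C-x(2,4)-C-x(12)-H-x(3,5)-H and KRAB boxes by a profile search (pyhmmer 0.12.3, E-value limit 1e-05) in place of the planned letter pattern, in translated GENCODE transcripts. Named genes are the 6 most expressed, the largest called changes (up to 6 each way; otherwise the smallest adjusted p), the interaction's 3 each way, members of role lists and those at the limit. Others named here were chosen after their values were seen. The members, the gene lists and the rule were chosen with earlier results of these data known.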

Additional observations from a re-analysis of the deposited data

Results flagged for a closer look

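The knockout effect on Zfp688 in tumors minus that in normal liver was -0.85 on the log2(FPKM + 1) scale, and the test of that difference itself (limma interaction term over 12 libraries) gave an adjusted p of 0.0392. In tumors it had 3.22, 3.94 and 3.49 FPKM in KO, against 4.42, 4.05 and 4.04 in WT. In normal livers it had 3.29, 4.05 and 3.95 FPKM in KO, against 1.76, 2.12 and 2.15 in WT. Over the leave-one-out fits the difference ran from -0.92 to -0.79, with a largest adjusted p of 0.0998. The call was also lost with the transcript length trend removed (-0.61, limma adjusted p = 0.102), on rescaling to a common sum (-0.82, 0.135) and without a filter on low FPKM (-0.85, 0.0699).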

How the results depend on the processing

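Rescaling to a common sum moved the median of all tested genes to 0.23 for WT tumors against WT normal liver (-0.04 before) and to 0.36 for KO tumors against KO normal liver (-0.02 before), and turned the Zfp medians of both comparisons positive. Calls rest on 3 libraries a group, FPKM carry no read depth, and the causes of the shifts below were not tested. With a pseudocount of 0.1, the Zfp median was -0.15 for KO against WT normal liver, -0.15 for WT tumors against WT normal liver. With a pseudocount of 5, the Zfp median was -0.04 for KO against WT normal liver, -0.04 for WT tumors against WT normal liver. Zfp calls numbered 4 for KO tumors against KO normal liver. Without a filter on low FPKM, Zfp calls numbered 17 for KO against WT normal liver, 13 for WT tumors against WT normal liver, 4 for KO tumors against KO normal liver, 0 for the interaction. Calls over all genes numbered 1355 for KO against WT normal liver, 1 for KO against WT tumors, 852 for KO tumors against KO normal liver, 56 for the interaction. Zkscan, Zscan and Zbtb calls numbered 1 for KO against WT normal liver, 1 for WT tumors against WT normal liver, 0 for KO tumors against KO normal liver. KAP1 partner calls numbered 0 for KO tumors against KO normal liver. With a filter at a mean FPKM of 5, Zfp calls numbered 11 for KO against WT normal liver, 9 for WT tumors against WT normal liver, 1 for KO tumors against KO normal liver, 0 for the interaction. The Zfp median was -0.07 for KO against WT normal liver, -0.25 for KO tumors against KO normal liver, -0.02 for the interaction. Calls in other zinc finger families numbered 1 for KO against WT normal liver, 0 for WT tumors against WT normal liver, 0 for KO tumors against KO normal liver. Calls over all genes numbered 1263 for WT tumors against WT normal liver, 670 for KO tumors against KO normal liver, 133 for the interaction. KAP1 partner calls numbered 0 for KO tumors against KO normal liver. Without the variance trend, KAP1 partner calls numbered 5 for KO against WT normal liver. With the transcript length trend removed, the Zfp median was -0.05 for KO against WT normal liver, -0.05 for WT tumors against WT normal liver. Calls over all genes numbered 1379 for KO against WT normal liver, 18 for KO against WT tumors. Calls in other zinc finger families numbered 4 for WT tumors against WT normal liver. Zfp calls numbered 0 for the interaction. In one fit of all 12 libraries, calls over all genes numbered 1144 for KO against WT normal liver, 1017 for KO against WT tumors, 1105 for WT tumors against WT normal liver, 3340 for KO tumors against KO normal liver. Zkscan, Zscan and Zbtb calls numbered 0 for KO against WT normal liver, 2 for KO against WT tumors, 1 for WT tumors against WT normal liver, 4 for KO tumors against KO normal liver. Zfp calls numbered 3 for KO against WT tumors, 24 for KO tumors against KO normal liver. KAP1 partner calls numbered 1 for KO against WT tumors, 5 for KO tumors against KO normal liver. Rescaled to a common sum, calls over all genes numbered 24 for KO against WT tumors, 115 for the interaction. Zfp calls numbered 15 for WT tumors against WT normal liver, 0 for the interaction. The Zfp median was 0.12 for WT tumors against WT normal liver, 0.26 for KO tumors against KO normal liver. KAP1 partner calls numbered 2 for KO tumors against KO normal liver. Calls in other zinc finger families numbered 0 for KO tumors against KO normal liver. With median-of-ratios scaling, calls over all genes numbered 14 for KO against WT tumors. Zkscan, Zscan and Zbtb calls numbered 2 for KO tumors against KO normal liver. With quantile normalization, the Zfp median was -0.20 for KO against WT tumors, -0.25 for WT tumors against WT normal liver, -0.30 for KO tumors against KO normal liver, -0.04 for the interaction. Calls over all genes numbered 16 for KO against WT tumors. Calls in other zinc finger families numbered 4 for WT tumors against WT normal liver, 2 for KO tumors against KO normal liver. Over entries matched to a transcript only (chosen after seeing the data), calls over all genes numbered 47 for KO against WT tumors. Zkscan, Zscan and Zbtb calls numbered 4 for WT tumors against WT normal liver. Over names found once only (chosen after seeing the data), calls over all genes numbered 44 for KO against WT tumors.

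The libraries share only a replicate number: deviations of same-numbered libraries correlated with r from -0.276 to 0.347, over 0.1 in 1 of 12 pairs, that of KO tumor 1 and WT tumor 1, so the numbers were not taken as pairing them. With the replicate number as a block, Zfp calls numbered 3 for KO against WT normal liver, 9 for WT tumors against WT normal liver, 4 for KO tumors against KO normal liver, 0 for the interaction. Calls over all genes numbered 153 for KO against WT normal liver, 0 for KO against WT tumors, 1235 for WT tumors against WT normal liver, 114 for the interaction. KAP1 partner calls numbered 0 for KO against WT normal liver, 1 for WT tumors against WT normal liver. Zkscan, Zscan and Zbtb calls numbered 0 for KO against WT normal liver, 1 for WT tumors against WT normal liver, 0 for KO tumors against KO normal liver.

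Leaving out 1 library at a time gave the following ranges. Zfp calls ran from 2 to 24 for KO against WT normal liver (28 with all libraries), 3 to 23 for WT tumors against WT normal liver (23 with all libraries), 0 to 21 for KO tumors against KO normal liver (7 with all libraries), 0 to 11 for the interaction (1 with all libraries). The Zfp median ran from -0.12 to -0.07 for KO against WT normal liver (-0.11 with all libraries). Over all genes, calls ran from 240 to 1964 for KO against WT normal liver (2113 with all libraries), 0 to 266 for KO against WT tumors (9 with all libraries), 454 to 2134 for WT tumors against WT normal liver (1981 with all libraries), 129 to 2981 for KO tumors against KO normal liver (1664 with all libraries), 7 to 1368 for the interaction (243 with all libraries). Those of KAP1 partners ran from 0 to 3 for KO against WT normal liver (3 with all libraries), 0 to 1 for KO against WT tumors (0 with all libraries), 1 to 5 for WT tumors against WT normal liver (4 with all libraries), 0 to 4 for KO tumors against KO normal liver (1 with all libraries), 0 to 2 for the interaction (0 with all libraries). In other zinc finger families they ran from 0 to 3 for KO against WT normal liver (3 with all libraries), 0 to 3 for WT tumors against WT normal liver (2 with all libraries), 0 to 5 for KO tumors against KO normal liver (1 with all libraries), 0 to 1 for the interaction (0 with all libraries).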

Other observations

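Of 2364 member values, 3 were listed at 0. One was Zfp808 in WT tumor 3, against 9.27 FPKM in WT tumor 1, and Zfp960 was listed at 0 in KO normal liver 3 and KO tumor 2.

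Entries that join a Zfp name with other genes were not members. Of 17 such entries tested, 0 rose and 3 fell in KO normal livers by limma (17.6%, against 18.1% of all tested genes). Rsl1, a KRAB zinc finger regulator of male-specific liver genes in mice and not a Zfp name, had 0.559, 0.396 and 0.423 FPKM in KO normal livers, against 0.947, 0.898 and 1.33 in WT normal livers (-0.49, limma adjusted p = 0.033).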
